A study of Mus musculus with 23 samples.

Results

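The tuft cell genes described here are 9 genes that mark the tuft cells of the small intestine or act in them, and they were followed across the 8 groups of mouse small intestine libraries. They were found in the deposited table by the symbols Dclk1, Trpm5, Pou2f3, Il25, Alox5ap, Sh2d6, Gfi1b, Avil and Il17rb of its NCBI Gene numbers, and all 9 were present among 17842 entries with such a number and 19215 entries in all. The study asked whether fecal microbiota transplantation (FMT) from donors dosed with alginate oligosaccharide (AOS), made from the alginate of brown seaweed, helps the small intestine after busulfan, an alkylating drug that damages dividing cells.

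Male ICR mice, an outbred strain, all received busulfan at 40 mg/kg at 3 weeks of age, also those of the control group Sa. Sa mice were then given saline, and the donors of the FMT given to the other mice had been dosed with vehicle (Con-FMT), with AOS at 10 mg/kg (A10-FMT) or with AOS at 100 mg/kg (A100-FMT). The methods describe daily dosing for 1 week, sampling at 5 weeks of age, and transplants made from the pooled luminal contents of the donors of a group, so that a donor group stands for 1 pool. No mice without busulfan are among these libraries, so the values say nothing of the intestine before the drug. Codes in the sample names put each library in set 1 or set 2, and what the sets stand for is not stated. Each treatment had 3 libraries in each set, and Sa of set 1 had 2, which gives 23 libraries. The labels do not state that replicates came from separate mice, and p-values measure the spread between these libraries.

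Tuft cells are rare epithelial cells with an apical bundle of microvilli that sense the contents of the lumen, partly with the cascade known from taste receptor cells. The transcription factor Pou2f3 is required for their formation, and the cation channel Trpm5 is the last step of the taste cascade. On sensing helminths, protists or some bacterial metabolites they release IL-25 and cysteinyl leukotrienes, which activate innate lymphoid cells, and the IL-13 of these cells in turn increases goblet and tuft cells.

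All 9 genes were low. Values are FPKM, fragments scaled to transcript length and to the mapped total, which allows levels of genes to be compared per length. Over the 23 libraries Trpm5 had the highest mean level with 1.21 ± 0.463 FPKM (SD, n = 23). Il17rb followed with 0.888 ± 0.116, Sh2d6 with 0.825 ± 0.37, Alox5ap with 0.767 ± 0.198 and Avil with 0.697 ± 0.221 FPKM. The ranges of mean ± SD of neighbours in this order overlapped, and differences between genes within the same libraries were not tested. Below them lay Pou2f3 with 0.21 ± 0.0838, Dclk1 with 0.124 ± 0.0515, Gfi1b with 0.0378 ± 0.038 and Il25 with 0.00652 ± 0.0147 FPKM. Dclk1, the kinase most used to stain tuft cells, was therefore expressed at a lower level than the channel, and of all 19215 entries between 10.9% (Il25) and 42.4% (Trpm5) had a lower mean level than a given member.

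**Figure D1:**
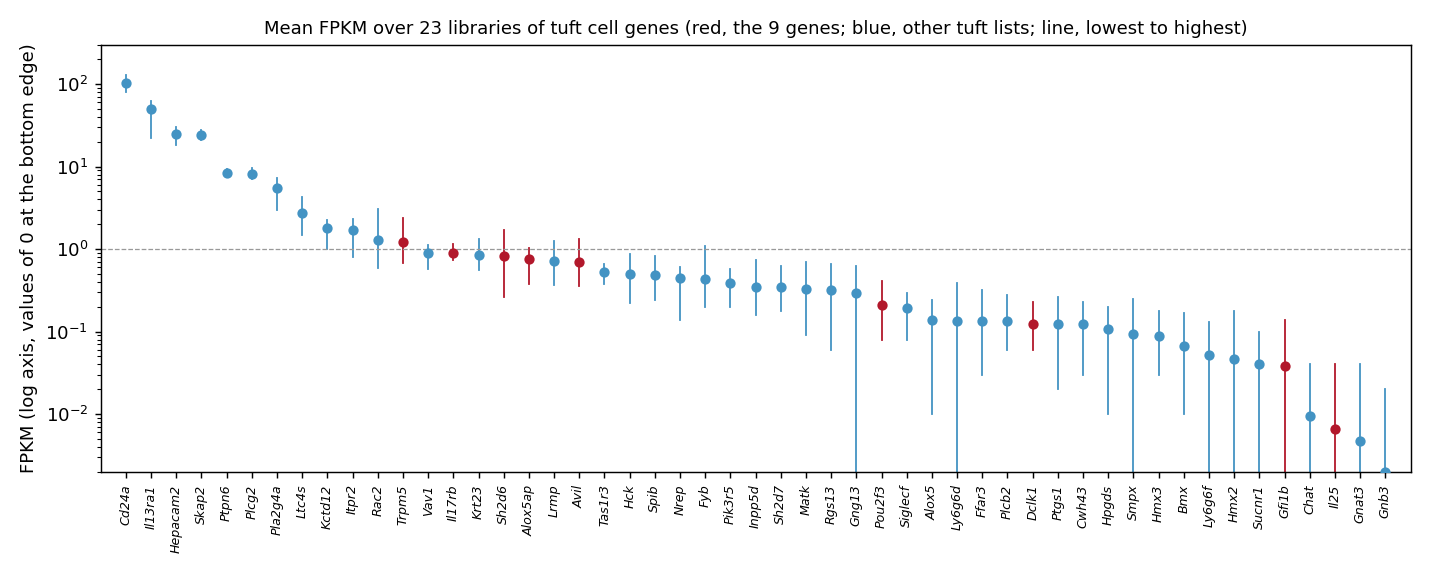
Mean FPKM over 23 libraries (log axis) of the 9 tuft cell genes (red) and of the genes of 4 other tuft cell lists (blue), sorted by level, with a line from the lowest to the highest library and a dashed line at 1 FPKM; values under the axis are drawn at its bottom edge. Trpm5 is the 1 red point above 1 FPKM, and Gnat3, Chat and Gnb3 lie at the right end.

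The tissue carried the marks of epithelium. The 7 epithelial markers summed to between 5660 and 8820 FPKM in a library, against 0.81 to 2.01 FPKM for 5 smooth muscle genes and 0.75 to 1.41 FPKM for 9 genes of enteric neurons and glia. Some genes that define tuft cells were at or near 0. Gnat3, the taste G protein subunit gustducin, was listed at 0 in 20 of 23 libraries, Gnb3 in 22 and Chat, the acetylcholine-synthesizing enzyme, in 13. In small intestine RNA that was not separated by cell type, fewer tuft cells and less RNA per tuft cell cannot be told apart.

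Libraries that stand apart touch several values below. Sa replicate 3 of set 1 deviated from the median library along GC content with a rank correlation of 0.69 across genes, against -0.221 to 0.22 in the other 22 libraries. The description of this sample also names another column of the table than its title does. By its name that column is a further Sa column of set 1 that no sample title names, and the table has 24 columns for 23 samples. It was used only in place of replicate 3, so set 1 comparisons with Sa rest on 2 libraries. Many of these comparisons are given also without replicate 3 or with the other column. In Con-FMT of set 2, replicate 3 had the highest level of Trpm5, Pou2f3, Sh2d6, Gfi1b and Il17rb of all 23 libraries. Its 6 T cell genes summed to 23.9 FPKM (4.13 to 23.9 over all libraries) and its 7 mast cell genes to 11.6 FPKM (0.55 to 11.6). Their part in the levels of these genes was not tested.

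Genes whose mean over the libraries reached 1 FPKM were compared on the log2(FPKM + 1) scale with limma, with Benjamini-Hochberg adjustment over the 11337 genes tested and a threshold of 0.05, and of the 9 genes only Trpm5 reached this level. For all 9 genes, each comparison over both sets was also made with an exact two-sided permutation test, which exchanged labels within each set in 200 regroupings for comparisons with Sa and 400 for those with Con-FMT and cannot give a p below 0.005. Of the 45 exact tests of these genes 7 had p under 0.05, and none was below the threshold once adjusted over the 19187 entries with a value above 0. A log2 change on this scale understates the ratio of genes this low, so ratios of mean FPKM are given beside it.

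Trpm5 (chr7:143071529-143094642, GRCm38) was highest in A10-FMT of set 1. Its level was 0.87 and 0.67 FPKM in Sa of set 1, 1.37, 1.02 and 0.84 in the Con-FMT libraries, 1.46, 2.15 and 2.18 in the A10-FMT libraries, and 1.45, 1.47 and 1.43 in those of A100-FMT. All A10-FMT and A100-FMT libraries of set 1 lay above all Sa and Con-FMT libraries of that set. In set 2 the levels were 1.07, 0.85 and 0.93 in Sa, 0.81, 1.04 and 2.36 in the Con-FMT libraries, 1.04, 1.02 and 0.9 in the A10-FMT libraries, and 0.95, 0.95 and 1.09 in those of A100-FMT. Here all groups overlapped, and the 2.36 FPKM of Con-FMT replicate 3 stood above the rest.

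In Sa vs. A10-FMT of set 1, Trpm5 rose by 0.72 ± 0.18 (log2, SE) with an adjusted p of 0.0084 by limma, a ratio of means of 2.51, while 32.0% of all genes tested passed the same threshold in that comparison. Without Sa replicate 3 the change was 0.64 with an adjusted p of 0.0983, and with the column named in the description 0.68 with 0.00867. It was also not called with array quality weights, with an adjusted p of 0.741, or when only the compared groups were fitted, with 0.288. In set 1 the epithelial markers summed to 7780 to 8820 FPKM in A10-FMT and to 6380 to 6680 in Sa. These markers did not move together. Fabp2 had a mean of 2650 FPKM in A10-FMT and 1040 in Sa, and Krt20, Vil1 and Epcam were also higher. Krt8 (2600 against 3020 FPKM), Krt18 and Cdh1 were lower. The part of these differences in the Trpm5 level was not tested.

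In Sa vs. A100-FMT of set 1 the ratio for Trpm5 was 1.88 and the log2 change 0.47 ± 0.18 with an adjusted p of 0.0544 by limma, with 35.2% of all genes called. Without Sa replicate 3 the adjusted p was 0.5 at a change of 0.39, and with the column of the description it was 0.136 at 0.43. Con-FMT differed from Sa by 0.22 ± 0.18 in set 1 (adjusted p = 0.353 by limma, 26.9% of genes called), with adjusted p-values of 0.935 without replicate 3 and 0.734 with the other column. In Con-FMT vs. A10-FMT of set 1, which does not use Sa, Trpm5 rose by 0.49 ± 0.16 with an adjusted p of 0.0476, and 16.7% of genes passed. This call was close to the threshold, and it was lost in the 4 alternative fits named in the closing section and on leaving out 17 of the 23 libraries one at a time. In Con-FMT vs. A100-FMT of set 1 the difference was 0.25 ± 0.16 with an adjusted p of 0.649 and 0.406% of genes called.

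In set 2 no FMT group differed from Sa in Trpm5 by limma. The log2 differences were 0.25 ± 0.16 for Con-FMT, 0.03 ± 0.16 for A10-FMT and 0.03 ± 0.16 for A100-FMT, with unadjusted p-values of 0.148, 0.868 and 0.835. Of all genes tested 0.0353%, 0.423% and 0.0353% were called in these comparisons. Against Con-FMT of set 2 the differences were -0.22 ± 0.16 for A10-FMT and -0.21 ± 0.16 for A100-FMT (unadjusted p = 0.196 and 0.21 by limma), and 0.379% and 0.0% of all genes were called, the latter with 1270 genes at an unadjusted p under 0.05.

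The difference between the sets was itself tested. The Trpm5 effect of A10-FMT against Sa was lower in set 2 than in set 1 by 0.69 ± 0.25 on the log2 scale with an adjusted p of 0.0443 by limma, where 28.4% of all genes passed. This call too was close to the threshold: it was lost on leaving out 16 of the 23 libraries one at a time, with an adjusted p of 0.144 without Sa replicate 3 of set 1. For A100-FMT the difference between the sets was -0.44 ± 0.25 with an adjusted p of 0.183 and 26.8% of genes called, and for Con-FMT it was 0.02 ± 0.25 with an adjusted p of 0.952 and 0.00882% of genes called. Averaged over the treatments, Trpm5 differed by -0.14 ± 0.08 in set 2 vs. set 1, which did not pass (adjusted p = 0.27, 13.3% of genes called).

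Averaged over both sets, no limma comparison called Trpm5, with log2 differences of 0.24 ± 0.12 for Con-FMT, 0.37 ± 0.12 for A10-FMT and 0.25 ± 0.12 for A100-FMT against Sa and adjusted p-values of 0.238, 0.153 and 0.199. Unadjusted, the p of A10-FMT was 0.00739. The shares of all genes called were 0.75%, 0.132% and 0.891%. Against Con-FMT the differences were 0.14 ± 0.12 for A10-FMT and 0.02 ± 0.12 for A100-FMT, where 0.0% and 0.123% of genes were called, and 697 genes had an unadjusted p under 0.05 in the comparison without a call. By the exact test over both sets, p was 0.045 for A10-FMT and 0.025 for A100-FMT against Sa, and 0.0875 and 0.0625 without Sa replicate 3 of set 1. The other 8 genes were too low for this fit and have the exact tests.

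**Figure D2:**
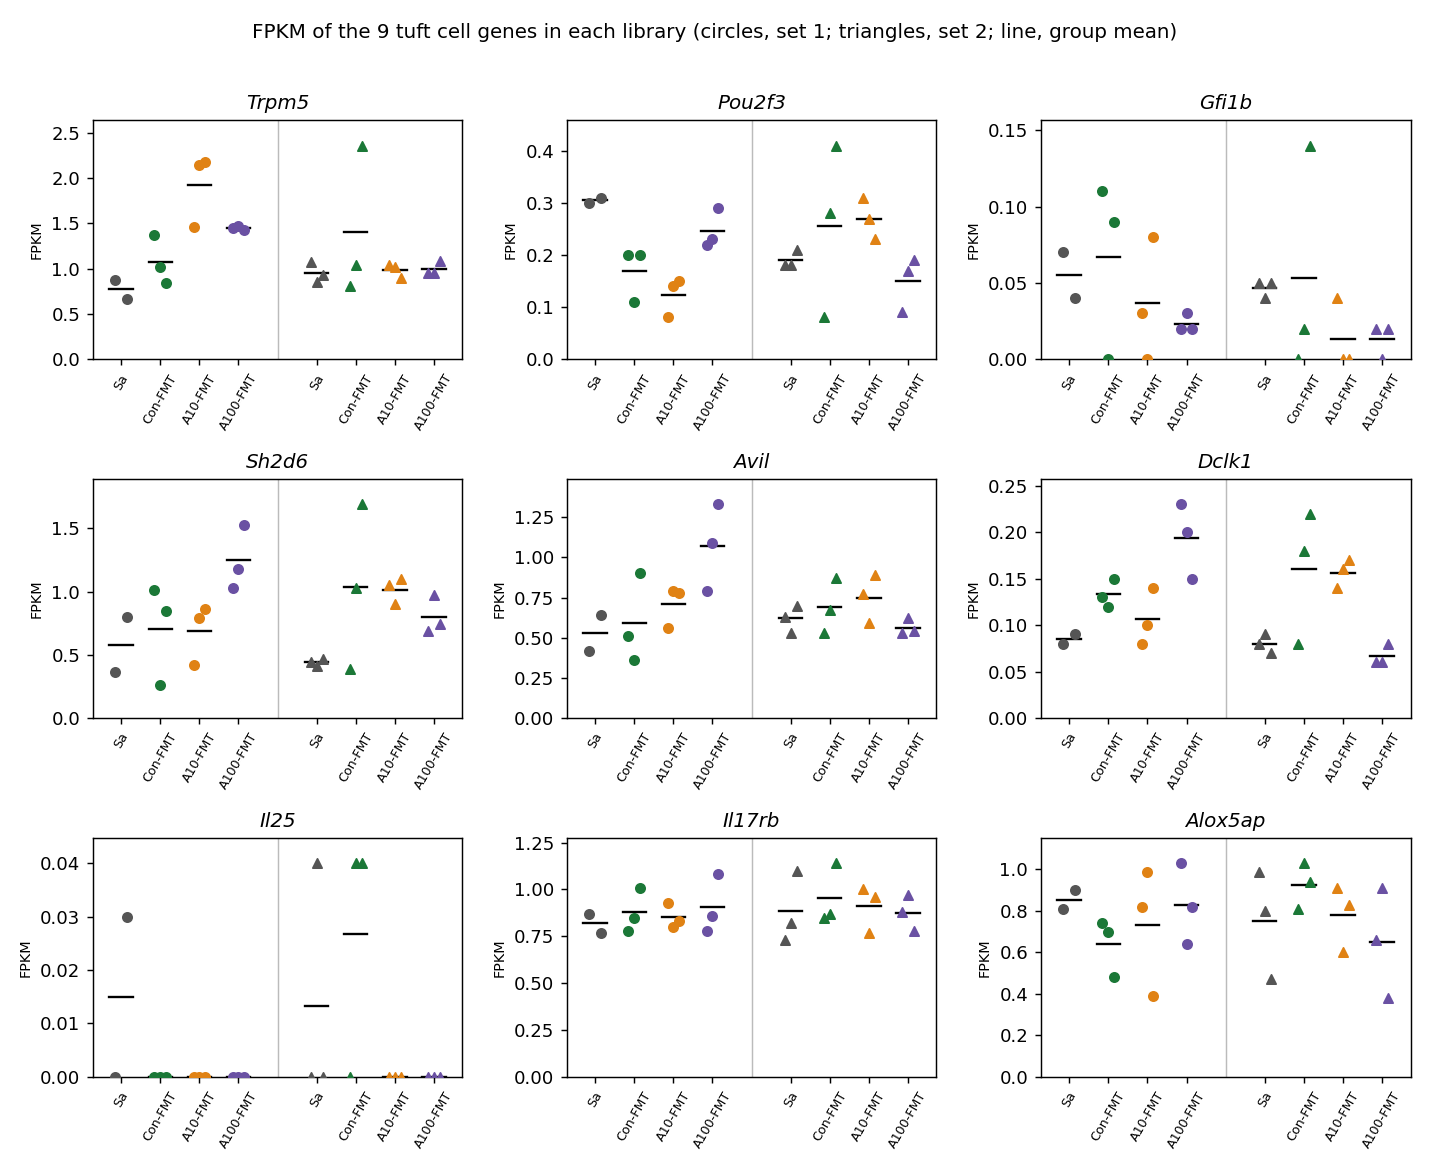
FPKM of each of the 9 genes (1 panel per gene, axes from 0) by treatment, with set 1 left of the grey line (circles) and set 2 right of it (triangles); points are libraries and black lines group means. Trpm5 is above the Sa libraries in A10-FMT and A100-FMT of set 1, Sh2d6 is above them in A100-FMT of both sets, and Gfi1b is below them there.

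By the exact test over both sets, the tuft cell genes with p under 0.05 against Sa were 1 of 9 in Con-FMT and 3 of 9 each in A10-FMT and A100-FMT. The description's column left 0 of 9 for Con-FMT and for A10-FMT and 3 of 9 for A100-FMT, and leaving out Sa replicate 3 of set 1 gave 1, 3 and 2 of 9. The same test gave p under 0.05 for 6.58%, 4.35% and 8.6% of the 19187 entries. The lowest p adjusted over these entries was 0.408, 0.786 and 0.385 in the respective comparison. Against Con-FMT none of the 9 had p under 0.05 in A10-FMT or A100-FMT, with 2.99% and 8.79% of all entries under it.

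The count of members whose groups do not overlap depended on the column used for Sa replicate 3. With the column of the title, in A100-FMT of set 1 Trpm5, Sh2d6, Avil and Dclk1 lay above all Sa libraries and Pou2f3 and Gfi1b below, 6 of 9, while 29.9% of all entries had groups that did not overlap. When the column of the description was used, only Trpm5 and Sh2d6 stayed apart there (2 of 9, with 31.3% of entries), and Avil, Dclk1, Pou2f3 and Gfi1b overlapped with Sa. In A10-FMT of set 1 Trpm5 lay above and Pou2f3 below (27.6% of entries), and in Con-FMT Dclk1 lay above and Pou2f3 and Alox5ap below (24.2%). With the column of the description these were the same genes in A10-FMT (38.9%) and only Pou2f3 in Con-FMT (20.6%). Without Sa replicate 3 the members apart numbered 3 for Con-FMT, 4 for A10-FMT and 6 for A100-FMT, with 41.8%, 51.8% and 47.9% of all entries apart from the single Sa library. In set 2, Sh2d6, Dclk1 and Pou2f3 were above all Sa libraries in A10-FMT (21.0%), Sh2d6 was above and Gfi1b below in A100-FMT (19.6%), and no member was apart in Con-FMT (13.2%). Against Con-FMT of set 1, Trpm5 was above in A10-FMT (28.1%) and Trpm5, Sh2d6 and Pou2f3 in A100-FMT (16.1%), and in set 2 none was apart in either group (17.9% and 16.2%). The comparisons with Sa share the Sa libraries, so these counts are not independent of each other.

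**Figure D3:**
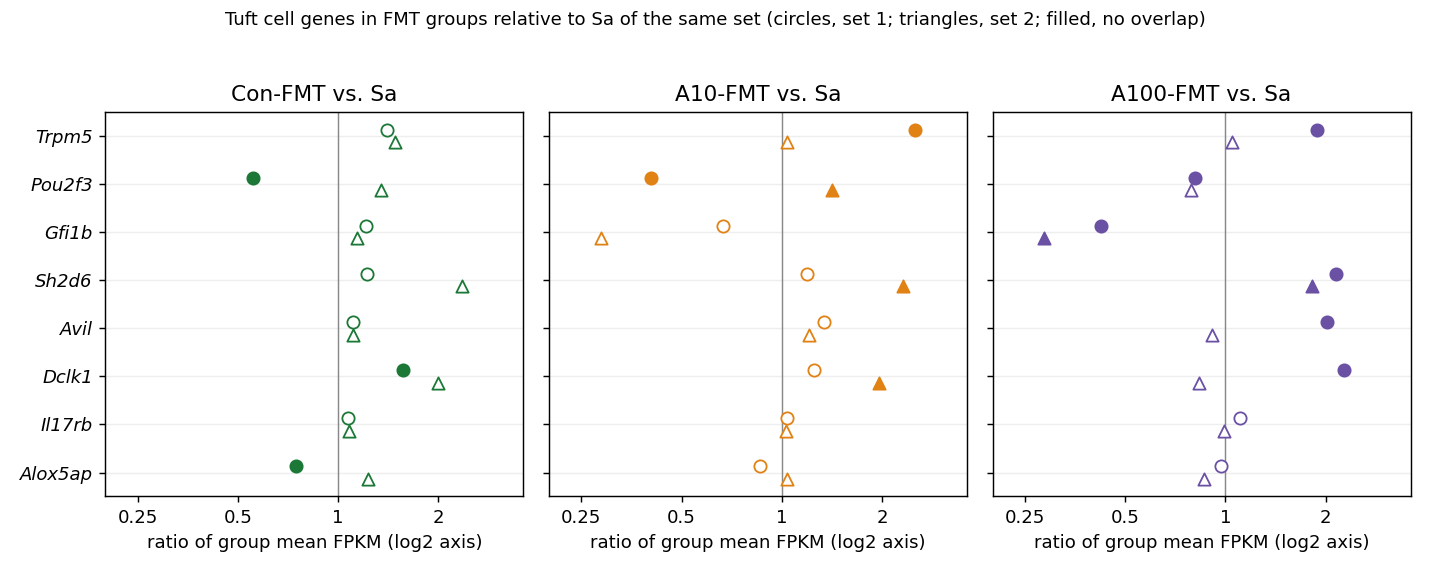
Ratio of mean FPKM in each FMT group to mean FPKM in Sa of the same set for 8 genes (log2 axis, 1 panel per FMT group; circles, set 1; triangles, set 2); filled symbols mark groups whose libraries do not overlap with Sa (column of the title for Sa replicate 3 of set 1), and Il25 is left out because most values are 0. Sh2d6 is filled on the right in both sets of A100-FMT, and Pou2f3 is filled on the left in set 1 and on the right in set 2 of A10-FMT.

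Sh2d6 (chr6:72513641-72534206), which encodes a protein with an SH2 domain and is a marker of tuft cells, was the gene whose A100-FMT libraries stood above Sa in both sets. In set 1 its level was 0.36 and 0.8 FPKM in Sa, 1.01, 0.26 and 0.85 in the Con-FMT libraries, 0.42, 0.79 and 0.86 in the A10-FMT libraries, and 1.03, 1.18 and 1.53 in those of A100-FMT. In set 2 it was 0.44, 0.41 and 0.47 in Sa, 0.39, 1.03 and 1.69 in the Con-FMT libraries, 1.05, 0.9 and 1.1 in the A10-FMT libraries, and 0.69, 0.97 and 0.74 in those of A100-FMT. The Con-FMT libraries covered the widest range in both sets and overlapped with Sa.

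The ratio of means of A100-FMT to Sa was 2.15 in set 1 and 1.82 in set 2, and the mean log2 difference over both sets was 0.42. When limma was fitted to all 19187 entries, this difference over both sets had an adjusted p of 0.163, with 25 entries called. The exact p was 0.005, the smallest this design can give, and 0.385 after adjustment over all entries. With the column of the description p was 0.005 again, and without Sa replicate 3 of set 1 it was 0.0125. A10-FMT had ratios of 1.19 and 2.31 to Sa with an exact p of 0.04, or 0.11 with the column of the description, and Con-FMT had 1.22 and 2.36 with 0.195. Sa vs. FMT thus differed most for A100-FMT in the exact test, whereas A100-FMT and Con-FMT had an exact p of 0.475. The 7 mast cell genes summed to 0.87 to 9.25 FPKM in A100-FMT of set 1 and to 1.07 to 9.52 in set 2, against 1.73 to 3.54 and 0.99 to 1.79 in Sa, and their part was not tested.

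Avil (chr10:127000065-127020994) encodes advillin, which binds and bundles actin in the microvilli of tuft cells. Its levels in set 1 were 0.42 and 0.64 FPKM in Sa, 0.51, 0.36 and 0.9 in the Con-FMT libraries, 0.56, 0.79 and 0.78 in the A10-FMT libraries, and 0.79, 1.09 and 1.33 in those of A100-FMT. In set 2 they were 0.63, 0.53 and 0.7 in Sa, 0.53, 0.67 and 0.87 in the Con-FMT libraries, 0.77, 0.59 and 0.89 in the A10-FMT libraries, and 0.53, 0.62 and 0.54 in those of A100-FMT. A100-FMT stood above Sa in set 1 alone, with ratios of 2.02 in set 1 and 0.909 in set 2, and the exact p over both sets was 0.19. When limma was fitted to all 19187 entries, Avil rose in A100-FMT vs. Sa of set 1 by 0.43 ± 0.13 with an adjusted p of 0.035 (17.5% of entries called), but the adjusted p was 0.185 with the column of the description and 0.195 without Sa replicate 3, and 4 of the 23 single omissions lost the call. The difference between the sets had an adjusted p of 0.0795 in the same fit.

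Markers of Paneth cells, the secretory cells of the crypt base, differed in the same A100-FMT group of set 1 in which Sh2d6, Avil and Dclk1 were above Sa. The 5 Paneth genes summed to 5240 to 7930 FPKM there, against 13500 to 15400 in Sa (14800 in the column of the description) and 11600 to 15700 in Con-FMT, and 4 of 5 (Defa24, Lyz1, Itln1 and Ang4) fell by limma against Sa with a median log2 change of -1.26, beside 35.2% of all genes called. The enteroendocrine genes Chga, Chgb and Tph1 fell as well, 3 of 6. In set 2 the Paneth sums were 6640 to 8570 FPKM in A100-FMT and 4620 to 7390 in Sa, and none of the 5 was called. Their part in the levels of the tuft cell genes was not tested.

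Dclk1 (chr3:55242303-55539068), a microtubule-associated kinase, lay between 0.06 and 0.23 FPKM. Its levels in set 1 were 0.08 and 0.09 FPKM in Sa, 0.13, 0.12 and 0.15 in the Con-FMT libraries, 0.08, 0.1 and 0.14 in the A10-FMT libraries, and 0.23, 0.2 and 0.15 in those of A100-FMT. In set 2 they were 0.08, 0.09 and 0.07 in Sa, 0.08, 0.18 and 0.22 in the Con-FMT libraries, 0.14, 0.16 and 0.17 in the A10-FMT libraries, and 0.06, 0.06 and 0.08 in those of A100-FMT. A100-FMT was thus the highest group of set 1 and the lowest of set 2.

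Over both sets the exact p of Dclk1 was 0.02 in Con-FMT vs. Sa, with ratios of 1.57 and 2.0, and 0.025 in A10-FMT vs. Sa, with 1.25 and 1.96. With the column of the description, in which Dclk1 is at 0.19 FPKM, these p-values became 0.22 and 0.4. In the limma fit to all entries Dclk1 rose in A100-FMT vs. Sa of set 1 by 0.14 ± 0.04 (adjusted p = 0.0254, a ratio of 2.27), and this was lost with that column (adjusted p = 0.386) and without Sa replicate 3 (0.252), and with 3 of the 23 single omissions in all. The noncoding genes Gm25132, Gm9831 and Gm31443 overlap the Dclk1 locus, and as the strand used in counting is not stated, their reads cannot be told apart from those of Dclk1.

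Pou2f3 (chr9:43123927-43205755) differed in opposite directions between the sets in A10-FMT. In set 1 its level was 0.3 and 0.31 FPKM in Sa, 0.2, 0.11 and 0.2 in the Con-FMT libraries, 0.08, 0.14 and 0.15 in the A10-FMT libraries, and 0.22, 0.23 and 0.29 in those of A100-FMT. In set 2 it was 0.18, 0.18 and 0.21 in Sa, 0.08, 0.28 and 0.41 in the Con-FMT libraries, 0.31, 0.27 and 0.23 in the A10-FMT libraries, and 0.09, 0.17 and 0.19 in those of A100-FMT. All 3 FMT groups of set 1 were below both Sa libraries, also below the 0.27 FPKM of the description's column except for A100-FMT, whereas A10-FMT of set 2 was above all Sa libraries.

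The ratios of A10-FMT to Sa were 0.404 and 1.42. In the limma fit to all entries this difference between the sets was 0.31 ± 0.1 with an adjusted p of 0.0435, where 14.7% of all entries were called. The adjusted p was 0.05005 with the column of the description and 0.12 without Sa replicate 3 of set 1, and the call was lost on leaving out 17 of the 23 libraries one at a time. Over both sets the exact p was 0.32 for A10-FMT and 0.55 for Con-FMT, whose differences from Sa had opposite directions in the 2 sets. A100-FMT had ratios of 0.809 and 0.789 to Sa, with an exact p of 0.05, or 0.095 with the column of the description. In the same fit Trpm5 rose in A10-FMT vs. Sa of set 1 with an adjusted p of 0.014 (16.5% of entries called), so that the factor had a lower mean and the channel a higher mean than Sa in the same A10-FMT libraries.

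Gfi1b (chr2:28609450-28621982), a transcriptional repressor that tuft cells share with erythroid cells and megakaryocytes, was listed at 0 in 6 of 23 libraries and reached 0.14 FPKM at most. Its levels in Sa were 0.07 and 0.04 FPKM in set 1 and 0.05, 0.04 and 0.05 in set 2. In A100-FMT they were 0.02, 0.03 and 0.02 in set 1 and 0.02, 0 and 0.02 in set 2, below every Sa library of the set. The exact p over both sets was 0.005, or 0.385 adjusted over all entries, with ratios of 0.424 and 0.286. With the column of the description, in which Gfi1b is at 0.02 FPKM, p was 0.02. In the limma fit to all entries the same difference over both sets had a p of 0.17, or 0.45 adjusted.

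These Gfi1b values are a few steps of the 2 decimals the table carries, and the lowest value above 0 was 0.02 FPKM. In Con-FMT they were 0.11, 0 and 0.09 in set 1 and 0, 0.02 and 0.14 in set 2, and in A10-FMT 0.03, 0 and 0.08, and 0.04, 0 and 0. Both groups overlapped with Sa. The 7 erythroid and megakaryocyte genes in the table summed to 0.49 to 1.6 FPKM over all libraries, and none of them reached a mean of 1 FPKM. A lncRNA gene also overlaps the Gfi1b locus.

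Il25 (chr14:54932695-54935837), the cytokine of tuft cells, was listed at 0 in 19 of 23 libraries. The values above 0 were 0.03 FPKM in Sa replicate 3 of set 1, 0.04 in Con-FMT replicates 2 and 3 of set 2 and 0.04 in Sa replicate 2 of set 2. All 12 libraries of A10-FMT and A100-FMT were at 0, and no depth is known that would give a limit for a listed 0. Every exact p of Il25 was 0.2 or above.

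Il17rb (chr14:29996168-30008896), a subunit of the receptor of IL-25 that tuft cells carry themselves, had the lowest coefficient of variation of the 9 genes and lay between 0.73 and 1.14 FPKM. Its group means ran from 0.82 ± 0.0707 FPKM (SD, n = 2) in Sa of set 1 to 0.953 ± 0.162 (n = 3) in Con-FMT of set 2. The exact p over both sets was 0.405, 0.66 and 0.62 for Con-FMT, A10-FMT and A100-FMT against Sa, with ratios between 0.992 and 1.11. All groups overlapped with Sa of their set.

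Alox5ap (chr5:149265004-149288153) encodes the protein that presents arachidonic acid to 5-lipoxygenase in leukotriene synthesis, and leukocytes express it as well. Its levels ranged from 0.38 to 1.03 FPKM, with a group mean of 0.855 ± 0.0636 FPKM (n = 2) in Sa and 0.64 ± 0.14 (n = 3) in Con-FMT of set 1. Con-FMT of set 1 lay below both Sa libraries, but the column of the description has 0.69 FPKM, which is within the Con-FMT range. The exact p-values against Sa were 0.845, 0.77 and 0.595 for Con-FMT, A10-FMT and A100-FMT. The 9 macrophage and neutrophil genes summed to 51.5 to 79.8 FPKM over the libraries, chiefly Cd14.

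The other genes of the taste cascade gave 1 tested gene. Of 7 genes (Gnat3, Gng13, Plcb2, Gnb3, Tas1r3, Itpr2 and Rgs13) only Itpr2, the IP3 receptor that releases calcium upstream of Trpm5, was above the filter. Its mean level in set 1 was 1.19 FPKM in Sa, 1.73 in Con-FMT, 1.93 in the A10-FMT group and 2.0 in that of A100-FMT, and in set 2 it was 1.73, 1.85, 1.43 and 1.56. Itpr2 rose in A10-FMT (0.43 ± 0.13, adjusted p = 0.0158 by limma) and A100-FMT (0.48 ± 0.13, adjusted p = 0.0132) of set 1 against Sa, and both effects were lower in set 2 (adjusted p = 0.013 and 0.0239). Without Sa replicate 3 the first 2 adjusted p-values were 0.367 and 0.459, and those of the differences between the sets 0.105 and 0.213. The first 2 were 0.0401 and 0.0541 with the column of the description.

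Of 42 genes in 4 further tuft cell lists (taste cascade, eicosanoid enzymes, receptors, other markers) 11 were tested by limma. In set 1 against Sa, 1 rose in Con-FMT (9.09%) and 3 each in A10-FMT and A100-FMT (27.3%), and none fell, where 26.9%, 32.0% and 35.2% of all genes were called, so these shares were below the background. The median log2 changes were 0.286, 0.08 and 0.0631 against medians of 0.0546, -0.0118 and 0.0519 over all genes. Il13ra1, a receptor chain of IL-13, was called in all 3 groups, and Itpr2 and Hepacam2 in A10-FMT and A100-FMT. Hepacam2 was not called with the GC and length adjustment (adjusted p = 0.914 and 0.634) and its log2 change then turned from 0.32 and 0.37 to -0.02 and -0.08. In the fit with the other column Il13ra1 in Con-FMT (adjusted p = 0.35) and Hepacam2 in A10-FMT and A100-FMT (0.122 and 0.101) were not called either. No gene of the 11 was called in set 2, over both sets or against Con-FMT by limma.

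By the exact test over both sets, 5 of these 42 genes had p under 0.05 in Con-FMT vs. Sa (Cd24a, Skap2, Itpr2, Sh2d7 and Ffar3, all higher), 1 in A10-FMT vs. Sa (Lrmp, higher) and 4 in A100-FMT vs. Sa (Tas1r3, Matk and Ffar3 higher, Plcg2 lower). These are 11.9%, 2.38% and 9.52% of the 42, beside the shares of all entries given above. In Con-FMT vs. A10-FMT it was 1 (Plcb2, lower) and in Con-FMT vs. A100-FMT 4 (Cd24a, Skap2, Vav1 and Hmx3, lower). These are 2.38% and 9.52% of the 42, near the 2.99% and 8.79% of all entries in these comparisons. The eicosanoid enzymes Alox5, Ltc4s, Ptgs1, Hpgds and Pla2g4a, which take part in leukotriene and prostaglandin synthesis, had none in any of the 5 comparisons.

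Of the genes of the type 2 circuit around tuft cells 17 had values and 8 were tested. In A10-FMT vs. Sa of set 1, 3 of the 8 rose (Areg, Il33 and Il13ra1), which is 37.5% beside 32.0% of all genes, a share near the background. In A100-FMT the same 3 were called (35.2% of all genes), of which Areg and Il33 were not called with the column of the description (adjusted p = 0.17 and 0.2) or without Sa replicate 3 (0.69 and 0.659). Il4ra, Stat6 and Retnlb were not called, and the IL-4, IL-9 and IL-13 genes were not among the entries used here. Areg, an epidermal growth factor receptor ligand made by innate lymphoid and epithelial cells, had means of 1.93 FPKM in Sa, 3.49 in Con-FMT, 10.8 in the A10-FMT group and 3.91 in that of A100-FMT in set 1, and in set 2 of 3.07, 5.21, 2.19 and 3.87 in the same order. It rose by 2.06 ± 0.28 in A10-FMT vs. Sa of set 1 (adjusted p = 0.00051 by limma), and by 1.65 with an adjusted p of 0.0108 without Sa replicate 3 and by 1.86 with 0.00017 with the other column. Il33, an alarmin of epithelial and stromal cells, rose by 1.22 ± 0.2 (adjusted p = 0.000846, 0.0263 without that library and 0.000681 with the other column), with means of 2.48 FPKM in Sa and 6.87 in A10-FMT.

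Against Con-FMT of set 1, which does not involve Sa, Areg rose in A10-FMT by 1.41 ± 0.25, Il33 by 0.88 ± 0.18 and the goblet cell gene Clca1 by 0.42 ± 0.14, with adjusted p-values of 0.00159, 0.0039 and 0.0453 by limma. These are 3 of the 8 genes tested, in a comparison in which 16.7% of all genes were called. The effects of A10-FMT against Sa differed between the sets by limma for Areg (-2.41 ± 0.38, adjusted p = 0.0005), Il33 (-1.56 ± 0.27, adjusted p = 0.000861) and Il13ra1 (-1.02 ± 0.21, adjusted p = 0.00227). That is 37.5% of the 8 genes beside 28.4% of all genes called. These differences include Sa replicate 3 of set 1, and values without it are not given here. The tuft receptor list, which holds Il13ra1, had its lowest sum in that library (120 FPKM). Retnlb, a goblet cell product of this circuit, was not called by limma in any comparison and lay between 9.93 and 777.9 FPKM.

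The tuft cell genes were also compared with each other within groups, with log2(FPKM + 1) centred on the group mean. Of the 36 pairs 30 had a positive Pearson r over the 23 libraries, with a median of 0.371. The points share library preparation, depth and composition of each library, so a correlation is a description. The closest pairs were Pou2f3 with Sh2d6 (Pearson r = 0.852, Spearman rho = 0.718, permutation p = 0.00147 and 0.00273) and Sh2d6 with Avil (r = 0.752, rho = 0.809, permutation p = 0.00308 and 0.00061). Adjusted over the 36 pairs, p was 0.0529 and 0.0554 for r and 0.0491 and 0.022 for rho, so no Pearson r passed 0.05. Without the 2 libraries farthest from the median in the first gene of the pair, these 2 values of r were 0.704 and 0.697.

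Some pairs with Dclk1 or Trpm5 depended on Con-FMT of set 2. The r of Trpm5 with Dclk1 was 0.602 (rho = 0.242, permutation p = 0.223 and 0.406) and went to 0.0688 without replicates 1 and 3 of Con-FMT in set 2, and r of Dclk1 with Pou2f3 went from 0.662 to 0.0613. Both of these relations rest on these libraries. Without them the r of Trpm5 also fell, from 0.738 to 0.297 with Pou2f3, from 0.628 to 0.226 with Sh2d6 and from 0.698 to 0.377 with Gfi1b. Avil with Il17rb (r = 0.578) and with Pou2f3 (r = 0.564) kept 0.565 and 0.526 without the farthest libraries, whereas Alox5ap had a median r of -0.06 with the other 8 genes.

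**Figure D4:**
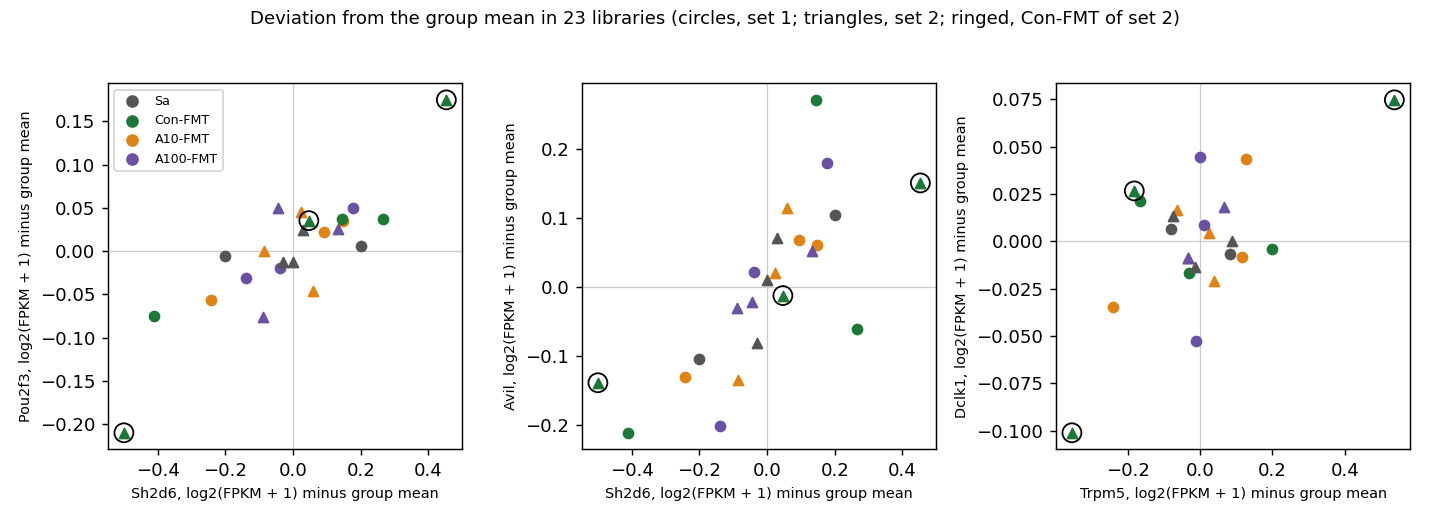
Deviation of log2(FPKM + 1) from the group mean in 23 libraries for Sh2d6 and Pou2f3, Sh2d6 and Avil, and Trpm5 and Dclk1 (colours, treatments; circles, set 1; triangles, set 2; rings, Con-FMT of set 2). Without the 2 farthest libraries Pearson r was 0.704 and 0.697 in the first and second panel, and 0.0688 in the third.

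As Pou2f3 with Sh2d6 and Sh2d6 with Avil were the closest pairs, the 250 bases before a transcript start of Sh2d6 and Avil are shown, from RefSeq on GRCm38.p6. Avil itself had an r of 0.564 with the factor Pou2f3, below Trpm5 (0.738), Gfi1b (0.691) and Dclk1 (0.662). Such windows were at hand for 6 of the 9 genes (7 windows). The letters searched were ATGCAAA on both strands, the core of the octamer that POU factors bind, which 4.12% of 32851 windows of this length hold, and matches are in capitals. The window of Sh2d6 (chr6:72520037-72520286, minus strand) lies in introns of 6 GENCODE transcripts and overlaps no exon. That of Avil (chr10:127000459-127000708, plus strand) overlaps no GENCODE transcript, but it lies inside the RefSeq locus of Avil, which starts at chr10:127000065. They are written 5′ to 3′ along the gene.
Sh2d6: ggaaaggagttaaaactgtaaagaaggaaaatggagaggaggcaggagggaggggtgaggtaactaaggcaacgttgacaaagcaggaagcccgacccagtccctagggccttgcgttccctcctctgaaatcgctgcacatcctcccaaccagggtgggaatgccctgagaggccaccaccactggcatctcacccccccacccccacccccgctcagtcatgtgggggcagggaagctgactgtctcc
Avil: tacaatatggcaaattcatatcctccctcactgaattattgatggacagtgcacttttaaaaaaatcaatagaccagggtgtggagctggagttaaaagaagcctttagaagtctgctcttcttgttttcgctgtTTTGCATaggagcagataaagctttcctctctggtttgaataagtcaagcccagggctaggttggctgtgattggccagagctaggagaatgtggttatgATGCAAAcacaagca

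Avil held the letters at 2 places, 115 to 109 bases before the start on the opposite strand and 15 to 9 bases before it on the strand of the gene. Sh2d6 and the other 5 windows of members held none. A match is a description of the sequence only.

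Likeness in this measure was ranked among the 11337 genes tested by limma. Most tuft cell genes were under that filter and could therefore not be among the nearest genes. Nearest to Trpm5 were Adarb2 (r = 0.799), Rdh10 (0.786) and Ccdc120 (0.72), and for the genes under the filter the nearest were Btnl2 for Dclk1 (0.851), Abcb9 for Pou2f3 (0.851), Pink1 for Sh2d6 (0.869) and Muc2 for Avil (0.844). Outside this ranking, the tuft cell genes Lrmp (0.871), Rgs13 (0.858) and Sh2d6 (0.852), all under the filter, had a higher r with Pou2f3 than Abcb9. For Trpm5, Dclk1, Sh2d6 and Avil no listed tuft cell gene exceeded the first of the nearest genes named. For Trpm5, however, Matk (0.758) and Pou2f3 (0.738), both under the filter, had a higher r than Ccdc120. The 95th percentile of r over all tested genes was between 0.389 (Alox5ap) and 0.496 (Sh2d6). Of the other 8 members, 6 exceeded it for Pou2f3, 5 for Sh2d6, 5 for Dclk1, 4 for Trpm5 and none for Alox5ap. Muc2, the main goblet cell mucin with a mean level of 336 FPKM, had a rho of 0.884 with Avil. It was the 1 gene of 7 in the goblet cell list with an exact p under 0.05 in Con-FMT vs. A100-FMT (higher in A100-FMT). This is 14.3% of the list beside 8.79% of all entries. Tff3 also had a higher mean in A100-FMT than in Con-FMT in both sets, but Fcgbp and Agr2 had a lower one. Clca1 and Zg16 were higher in set 1 and lower in set 2.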

How the data were processed

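RNA of the small intestine was sequenced by the authors on an Illumina HiSeq after TRIzol isolation, and they state RPKM, while the column names of the deposited table give FPKM, the unit used here, with 2 decimals. The submitters' processing notes name mm10, and the aligner and the strand of counting are not given in the sources used here. Depth is unknown, so no intervals or limits for a value of 0 are given. FPKM summed to 556466 to 667957 per library.

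The title and the description of Sa replicate 3 of set 1 name different columns; the title decided here, and the other column is an alternative. Values were analysed as log2(FPKM + 1), filtered at a mean of 1 FPKM, with R 4.3.3, limma 3.58.1 (1 mean per group, eBayes with trend), and with scipy 1.17.1, numpy 2.4.6, matplotlib 3.10.9 and pandas 2.3.3 under Python 3.11.15. Exact tests averaged the difference of group means over the sets. Both were tested on simulated data. Coordinates are from GRCm38.p6, and overlaps were read from its annotations.

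The members, lists and tests were chosen with earlier results of these data known. Genes named are the 9 members, of each other list the 3 with the highest mean, those called in a comparison described and defining markers at 0, and the genes most like a member; the genes with an exact p under 0.05, the genes of the taste cascade and eicosanoid lists and the nearest genes of members under the filter were named after their values were seen.

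Alternatives were a pseudocount of 0.1, all entries with a value above 0, quantile normalization, median-ratio scaling, only the groups compared, array quality weights, a replicate block, the description's column, a GC and length adjustment (known for 92.9% of the genes tested) and leaving out each library. Combinations of all entries with another alternative, the exact test over all entries, and the counts per comparison with the other column or without Sa replicate 3 of set 1, were chosen after seeing the data.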

Additional observations from a re-analysis of the deposited data

Results flagged for a closer look

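The effect of A10-FMT against Sa on Trpm5 differed between the sets by -0.69 on the log2 scale (set 2 minus set 1), a difference that passed the limma test of the interaction itself. The call was lost without Sa replicate 3 of set 1, with an adjusted p of 0.144.

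Pou2f3 lay below every Sa library in A10-FMT of set 1, with a ratio of means of 0.404, and above every Sa library in A10-FMT of set 2, with 1.42. Pou2f3 was under the filter of 1 FPKM, so this difference was not tested there, and the fit to all entries gave the adjusted p of 0.0435 named above.

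Groups had 2 or 3 libraries, and outliers within groups were therefore not tested.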

How the results depend on the processing

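Counts below are of members called, summed over the comparisons named. In FMT vs. Sa of set 1 the count of 1 became 2 with a pseudocount of 0.1, median-ratio scaling or the GC and length adjustment, 3 with all entries tested, and 0 with only the groups compared or array quality weights, and it ran from 0 to 2 on leaving out a library. The count against Con-FMT was 1 and became 0 with a pseudocount of 0.1, all entries tested, only the groups compared or the replicate block, and 0 to 1 on leaving out a library. The count of 1 for the difference between the sets became 0 with quantile normalization, array quality weights or the replicate block, and 0 to 1 on leaving out a library. With all entries tested it stayed at 1, but the gene was then Pou2f3 and not Trpm5. The counts of 0 over both sets and for set 2 vs. set 1 ran from 0 to 1 on leaving out a library, reaching 1 without Sa replicate 1 of set 1 and without Con-FMT replicate 3 of set 2. The 7 exact p-values under 0.05 became 3 with the description's column and ran from 3 to 9 on leaving out a library, with 3 without Sa replicate 1 of set 1 and 9 without Con-FMT replicate 1 of set 2. Sh2d6 and Gfi1b in A100-FMT vs. Sa kept an exact p under 0.05 in all 27 alternatives, at most 0.025 and 0.02. The limma fit to all entries called neither gene in this comparison over both sets, with adjusted p-values of 0.163 and 0.45.

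Replicate numbers did not pair the libraries: of 33 same-numbered pairs 10 had a correlation of deviations over 0.1, with a median of 0.00187. With the replicate block, Trpm5 in A10-FMT vs. Sa of set 1 kept an adjusted p of 0.0183, and in Con-FMT vs. A10-FMT it was 0.0671. No call of a member changed sign in an alternative. Depth is unknown, and for genes under 0.1 FPKM the 2 decimals limit what can be read.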
